A study of Mus musculus with 8 samples.

Results

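Entpd1, Nt5e, Adora2a and P2rx7 encode proteins that handle or sense extracellular ATP and adenosine at the lymphocyte surface. Ada and Ampd1 encode deaminases that remove adenosine and AMP, and Dpp4 encodes CD26, a surface dipeptidyl peptidase. These 7 genes were chosen by symbol, as the genes to which the RefSeq accessions of 9 probes mapped, out of 21154 genes with a probe. P2rx7 had 3 probes and each of the other genes had 1. All 7 passed the filter on dim probes, which kept 13496 genes for testing.

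The genes were followed across 4 populations sorted from CD4 single-positive cells of the mouse thymus, with 2 biological replicates of each and 1 single-colour array per replicate. Nr4a-TKO preTreg cells, precursors of regulatory T cells (Treg) from mice of the Nr4a-TKO genotype, which concerns the orphan nuclear receptors of the Nr4a family, were sorted as CD25-high, GITR-high and Nr4a3-high. Foxp3-KO preTreg cells, precursors from mice that lack Foxp3, the transcription factor that defines the Treg lineage, were sorted as CD25-high and positive for a Foxp3 reporter. Wild-type (WT) Treg cells were sorted as Foxp3+, and WT Tconv cells, the conventional T cells, as CD25-low. All cells were lysed directly after preparation from the thymus, without culture. The sources used here give no age of the mice, no deleted part of the genes, no Cre driver and no number of animals per sample. No WT precursor sample was used, so that genotype and sort gate change together in each comparison with a knockout group. Probes for Nr4a1, Nr4a2, Nr4a3 and Foxp3 were well above background on both arrays of each knockout group. The relative signal, in multiples of the array's 75th percentile, was 213 and 249 for Nr4a1 in Nr4a-TKO preTreg, against 144 and 195 in Foxp3-KO preTreg, 155 and 196 in WT Treg and 115 and 114 in WT Tconv, and 13.2 and 14.6 for Nr4a2, against at most 3.63 on any other array. Both were thus highest in the group labelled Nr4a-TKO, and Nr4a3, at 0.748 and 0.917 there, overlapped with WT Treg (0.779 and 2.01). Foxp3 had 3.92 and 3.35 in Foxp3-KO preTreg, against 32.1 and 26.3 in WT Treg. The sources used here do not say whether these probes lie in the deleted parts, so they settle neither label.

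Extracellular ATP signals danger through P2 receptors and is broken down by CD39, the product of Entpd1, to AMP, from which CD73, the product of Nt5e, releases adenosine. Adenosine acts through the receptor encoded by Adora2a to raise cyclic AMP and dampen T cell activation, and adenosine deaminase, the product of Ada, ends this signal by making inosine. CD39 and CD73 are known from mouse Treg cells as a route of suppression, and P2X7, the product of P2rx7, is the ATP-gated channel through which ATP, or NAD acting by way of ADP-ribosylation, can kill mouse T cells.

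Signals are given as the processed intensity of a probe in multiples of the 75th percentile of its array (relative signal), and differences as log2 of the first group over the second. On the 8 arrays 47.7% to 52.1% of the probes were well above background, and the 75th percentile lay 7.97 to 9.20 times above the local background. The Foxp3-KO preTreg replicates stood further apart than the other pairs, with a median SD of 0.14 on the log2 scale against 0.06 to 0.10 in the other groups. The defining CD4 T cell genes Cd3e, Cd4, Cd5, Il7r and Ccr7 were above background on all arrays. The summed signal of 6 defining Treg genes was 260 and 189 in Nr4a-TKO preTreg, 168 and 147 in Foxp3-KO preTreg, 357 and 337 in WT Treg and 30.6 and 31.9 in WT Tconv. WT Tconv and Nr4a-TKO preTreg lay in one row of the slide, and WT Treg and Foxp3-KO preTreg in the other, so for comparisons between rows the row and the group cannot be told apart. In these sorted bulk samples, fewer cells of a type and less RNA per cell cannot be told apart.

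Promoter windows are shown for the ectoenzymes Entpd1 and Nt5e and the receptor P2rx7, whose signals were highest in Nr4a-TKO preTreg or WT Treg and lowest in WT Tconv, and for Ada, whose signal was highest in WT Tconv. They are the 250 bases before the annotated start of transcription, 5′ to 3′ on the strand of the gene, from RefSeq on GRCm38.p6. The reference table held 7 windows for 5 of the 7 genes, with none for Adora2a or Ampd1. Capitals mark a match to one of 4 motifs searched on both strands: the NBRE bound by Nr4a receptors (AAAGGTCA, in 1.34% of all 32851 windows of this length), a forkhead motif (GTAAACA, 3.17%), the AP-1 motif (TGANTCA, 6.75%) and a kappaB motif (7.25%).
Entpd1, chr19:40612116-40612365, plus strand: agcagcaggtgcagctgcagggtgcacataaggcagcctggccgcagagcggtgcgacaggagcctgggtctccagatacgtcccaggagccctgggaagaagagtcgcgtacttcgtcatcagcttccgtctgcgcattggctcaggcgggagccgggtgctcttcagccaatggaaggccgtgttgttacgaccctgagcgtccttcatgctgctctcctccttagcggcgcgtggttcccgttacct
Nt5e, chr9:88327359-88327608, plus strand: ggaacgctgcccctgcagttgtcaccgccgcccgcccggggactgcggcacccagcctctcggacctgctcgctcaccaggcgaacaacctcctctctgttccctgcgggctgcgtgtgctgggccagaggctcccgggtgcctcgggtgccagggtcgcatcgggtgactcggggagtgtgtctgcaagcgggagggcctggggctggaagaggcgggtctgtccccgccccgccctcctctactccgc
P2rx7, chr5:122643677-122643926, plus strand: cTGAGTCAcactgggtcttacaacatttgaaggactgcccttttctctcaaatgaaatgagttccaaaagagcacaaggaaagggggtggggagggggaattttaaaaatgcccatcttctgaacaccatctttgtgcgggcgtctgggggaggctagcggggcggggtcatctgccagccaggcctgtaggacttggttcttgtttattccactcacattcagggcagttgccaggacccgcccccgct
Ada, chr2:163750240-163750489, minus strand: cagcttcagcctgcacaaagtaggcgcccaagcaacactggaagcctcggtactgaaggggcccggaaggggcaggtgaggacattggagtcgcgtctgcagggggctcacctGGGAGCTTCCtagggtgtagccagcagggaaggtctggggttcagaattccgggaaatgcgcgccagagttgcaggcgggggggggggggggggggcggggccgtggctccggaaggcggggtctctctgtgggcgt
The P2rx7 window opens with an AP-1 match, TGAGTCA, at positions -249 to -243 from the start. The Ada window holds a kappaB match, GGGAGCTTCC, at positions -137 to -128 from the start. No match was found in the windows of Entpd1, Nt5e or Dpp4, nor in the second window of P2rx7, which says only that these letters are not in these 250 bases. The Nt5e window was the richest in G and C, at 72.0% with 21 CpG dinucleotides, and the first Entpd1 window had 62.4% with 18, against a median of 52.4% and 6 over all windows. The Dpp4 window was the poorest of the 7, at 43.6% with 4 CpG dinucleotides.

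Against WT Tconv, Entpd1, Nt5e, Adora2a, P2rx7 and Dpp4 were higher and the deaminase genes Ada and Ampd1 lower in Nr4a-TKO preTreg, and the same held in WT Treg except for Entpd1, which did not pass there. In Nr4a-TKO preTreg all 7 genes passed the threshold of an adjusted p under 0.05 (limma, adjusted over the 13496 genes), 5 higher and 2 lower. The background of that comparison was high, since 48.3% of all tested genes were called, 21.5% higher and 26.8% lower. In WT Treg 6 of 7 were called, 4 higher and 2 lower, against 35.4% of all tested genes, 13.8% higher and 21.5% lower. In Foxp3-KO preTreg 3 of 7 were called, all 3 higher, against 24.6% of all tested genes, 10.4% higher and 14.3% lower. The median log2 difference of the 7 genes was 2.47 in Nr4a-TKO preTreg, 0.48 in Foxp3-KO preTreg and 1.97 in WT Treg, where the median of all tested genes was -0.10, -0.10 and -0.09. These 3 comparisons share the WT Tconv arrays. The 7 genes were chosen with earlier results of these data known, so these counts and medians are no independent test of the set.

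Between the other groups, Nr4a-TKO preTreg and Foxp3-KO preTreg differed in 6 of the 7 genes, 5 higher and 1 lower in Nr4a-TKO preTreg, where 33.8% of all tested genes were called, 18% higher and 15.8% lower. Nr4a-TKO preTreg differed from WT Treg in 1 gene, Dpp4, which was higher, against 35.4% of all genes, 19.5% higher and 15.9% lower. Foxp3-KO preTreg differed from WT Treg in 1 gene, P2rx7, which was lower, against 6.41% of all genes, 3.48% higher and 2.93% lower. With only the 2 groups compared in the fit, 0 of the 7 genes passed between the precursor groups, at adjusted p = 0.0566 to 0.119 for the 6 called here, 0 between Foxp3-KO preTreg and WT Treg and 1 between Foxp3-KO preTreg and WT Tconv. Calls over all tested genes fell in that fit too, to 6.62%, 0% and 9.51% in the same order of comparisons. Of the 42 combinations of gene and comparison, 24 were called, and 10 of these were called again without each of the 8 arrays in turn: Nt5e, P2rx7 and Dpp4 in Nr4a-TKO preTreg against WT Tconv and against Foxp3-KO preTreg, Nt5e and P2rx7 in WT Treg against WT Tconv, Ampd1 in Nr4a-TKO preTreg against WT Tconv, and Dpp4 in Nr4a-TKO preTreg against WT Treg.

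**Figure D1:**
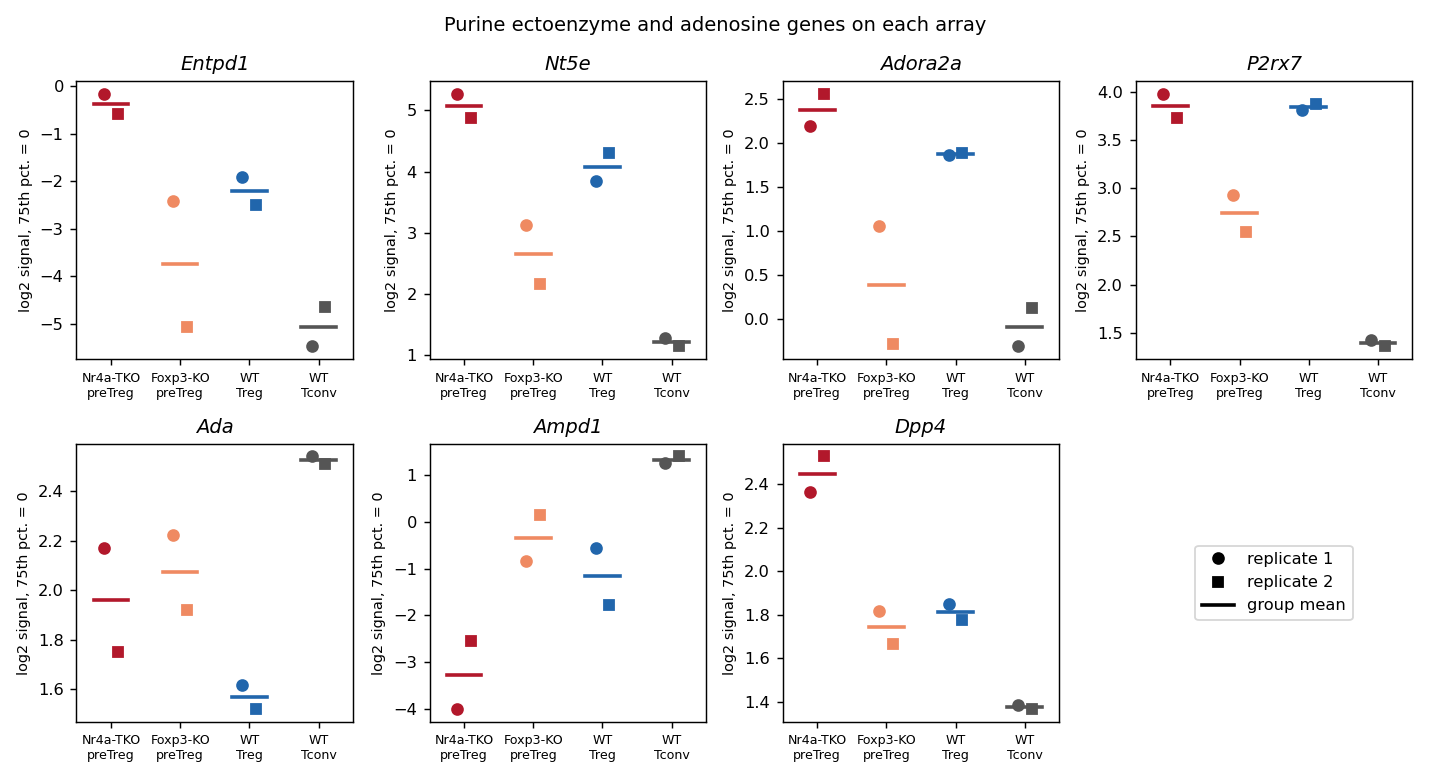
Log2 signal (array 75th percentile at 0) of the 7 genes on each of the 8 arrays, with a panel and a scale of its own for each gene; points are arrays and lines are group means of 2. Entpd1, Nt5e, Adora2a, P2rx7 and Dpp4 have their lowest group mean in WT Tconv, while Ada and Ampd1 have their highest there.

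Nt5e, the gene of CD73, which cuts AMP to adenosine, had a relative signal of 38.7 and 29.2 in Nr4a-TKO preTreg, 8.75 and 4.47 in Foxp3-KO preTreg, 14.3 and 19.8 in WT Treg and 2.43 and 2.20 in WT Tconv. No value of a group overlapped with those of another group. Nt5e was 14.5-fold higher in Nr4a-TKO preTreg than in WT Tconv (log2 3.86 ± 0.35 SE, adjusted p = 0.00121) and 7.29-fold higher in WT Treg (log2 2.87, adjusted p = 0.00367). In Foxp3-KO preTreg it was 2.70-fold higher than in WT Tconv (log2 1.43, adjusted p = 0.0378). That call was lost without any array except Foxp3-KO preTreg replicate 2, at adjusted p = 0.0601 to 0.164, and without Foxp3-KO preTreg replicate 1 the difference was 0.95. It was also lost without the filter on dim probes (0.0566) and with only the 2 groups compared in the fit (0.097).

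The precursor groups differed from each other by 5.38-fold in Nt5e, higher in Nr4a-TKO preTreg (adjusted p = 0.00736). Against WT Treg neither precursor group passed the threshold: the log2 difference was 1.0 in Nr4a-TKO preTreg (95% interval 0.12 to 1.87, adjusted p = 0.0764) and -1.43 in Foxp3-KO preTreg (-2.31 to -0.55, adjusted p = 0.0792). Both Nr4a-TKO values lay above and both Foxp3-KO values below the WT Treg values. Without Foxp3-KO preTreg replicate 1 both passed, at adjusted p = 0.0239 and 0.021, and without Foxp3-KO preTreg replicate 2 the first passed at 0.0236. With normexp background correction both passed as well, at 0.0381 and 0.0373, and likewise with an intensity trend in the variance (0.0427 and 0.0364).

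Entpd1, the gene of CD39, which acts upstream of CD73, was dim. Its relative signal was 0.896 and 0.663 in Nr4a-TKO preTreg, 0.187 and 0.0296 in Foxp3-KO preTreg, 0.265 and 0.177 in WT Treg and 0.0224 and 0.0395 in WT Tconv. It was well above background on both Nr4a-TKO preTreg and both WT Treg arrays, on replicate 1 alone of Foxp3-KO preTreg and on neither WT Tconv array. Where a group was below background on both arrays, the fold is a lower bound against the dimmest level that counted as above background. Entpd1 in Nr4a-TKO preTreg exceeded WT Tconv by at least 15.9-fold (adjusted p = 0.00884), a call lost without Nr4a-TKO preTreg replicate 1 (0.0506) and without WT Tconv replicate 1 (0.0577). In WT Treg it exceeded WT Tconv by at least 4.47-fold, and this difference missed the threshold at adjusted p = 0.0503, with adjusted p = 0.00598 and 0.00586 without Foxp3-KO preTreg replicate 1 or 2. It also passed under 7 other settings, among them the authors' deposited table (0.0498), array weights (0.00721) and only the 2 groups compared (0.0126). Its fitted log2 difference was 2.86, and 0.93 under normexp, and neither is a bound, since WT Tconv was below background.

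Nr4a-TKO preTreg had 10.4-fold more Entpd1 signal than Foxp3-KO preTreg (log2 3.37 ± 0.86 SE, adjusted p = 0.0338), with both values above both Foxp3-KO values, of which 1 was measured above background. This call was lost without any 1 of the Nr4a-TKO preTreg, WT Treg or WT Tconv arrays, at adjusted p = 0.0603 to 0.135, and with array weights (0.0527). The difference was 2.04 without Foxp3-KO preTreg replicate 2 and 1.76 under normexp. Foxp3-KO preTreg overlapped with WT Tconv in Entpd1: the mean of both arrays, of which 1 measured the gene, gave a bound of at least 1.54-fold, with adjusted p = 0.294. It rested on Foxp3-KO preTreg replicate 1, without which both groups were below background and no fold is given. Without replicate 2 the bound was at least 3.87-fold (adjusted p = 0.0175). Against WT Treg the Entpd1 log2 difference was 1.83 in Nr4a-TKO preTreg (95% interval -0.32 to 3.98, adjusted p = 0.151) and -1.54 in Foxp3-KO preTreg (-3.69 to 0.61, adjusted p = 0.33). The first passed without Foxp3-KO preTreg replicate 1 or 2 (0.0191 and 0.0188), under normexp (1.22, 0.0165) and with only the 2 groups compared (0.0241). Without Foxp3-KO preTreg replicate 1 the second passed (0.0279), but the remaining array was below background, so the signal was at least 3.57-fold lower than in WT Treg, and without replicate 2 the difference was -0.21.

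B cells and myeloid cells are known to carry CD39, and their markers, like those of innate-like T and NK cells, differed between these samples. The summed relative signal of 10 B cell genes was 76.2 and 18.8 in Nr4a-TKO preTreg, 22.8 and 5.71 in Foxp3-KO preTreg, 5.70 and 4.0 in WT Treg and 2.17 and 2.03 in WT Tconv. Ms4a1, Cd79a, Pax5 and Ebf1 were below background on both WT Tconv arrays, and 9 of the 9 tested B cell genes were called higher in Nr4a-TKO preTreg than in WT Tconv, with 2 of 9 in Foxp3-KO preTreg and 0 of 9 in WT Treg. The summed signal of 10 myeloid genes was 160 and 116 in Nr4a-TKO preTreg, 133 and 94.8 in Foxp3-KO preTreg, 127 and 123 in WT Treg and 73.0 and 74.7 in WT Tconv. The summed signal of 10 genes of innate-like T and NK cells was 171 and 168 in Nr4a-TKO preTreg, 134 and 54.2 in Foxp3-KO preTreg, 109 and 121 in WT Treg and 50.7 and 50.9 in WT Tconv. Il2rb, which Treg cells also express, formed much of this sum, at 81.1 and 73.1 in Nr4a-TKO preTreg and 19.2 and 19.2 in WT Tconv. Nkg7, Cd160, Tbx21 and Ncr1 were also higher in Nr4a-TKO preTreg than in WT Tconv. Zbtb16, Klrb1c, Klra7, Klra9 and Klrc1 were higher in WT Tconv than in Nr4a-TKO preTreg and WT Treg on every array. Zbtb16 had 5.16 and 4.84 in WT Tconv, 0.377 and 0.444 in Nr4a-TKO preTreg and 0.129 and 0.0828 in WT Treg. Of all 10 innate-like genes, 2 were called higher and 3 lower in Nr4a-TKO preTreg than in WT Tconv, 1 and 1 in Foxp3-KO preTreg, and 1 and 5 in WT Treg, with Ncr1 below background on both WT Tconv arrays. Over all tested genes 21.5% were called higher and 26.8% lower in Nr4a-TKO preTreg. The shares were 10.4% and 14.3% in Foxp3-KO preTreg and 13.8% and 21.5% in WT Treg. Foxp3-KO preTreg replicate 1 stood above replicate 2 in the innate-like sum too, and in Klrc1, an NK cell receptor gene, at 3.75 and 0.111. In both precursor groups replicate 1 had the higher B cell and myeloid sums and the higher Entpd1, Nt5e and P2rx7 signals. The innate-like sums of Nr4a-TKO preTreg were close, at 171 and 168. Il2rb, Tbx21 and Ncr1 were higher in replicate 1 of that group, and Zbtb16, Klrb1c, Klra7, Klra9, Klrc1, Nkg7 and Cd160 in replicate 2. Adora2a was higher in replicate 1 in Foxp3-KO preTreg and in replicate 2 in Nr4a-TKO preTreg. Without Nr4a-TKO preTreg replicate 1 the difference from WT Tconv was 3.66 for Nt5e, 2.34 for P2rx7 and 4.48 for Entpd1, the last a fitted value that is no bound. Replicate 2, the array left in that group, also had a B cell sum above WT Tconv, at 18.8, so these values do not separate other cells. The part of other cells in these differences was not tested.

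**Figure D2:**
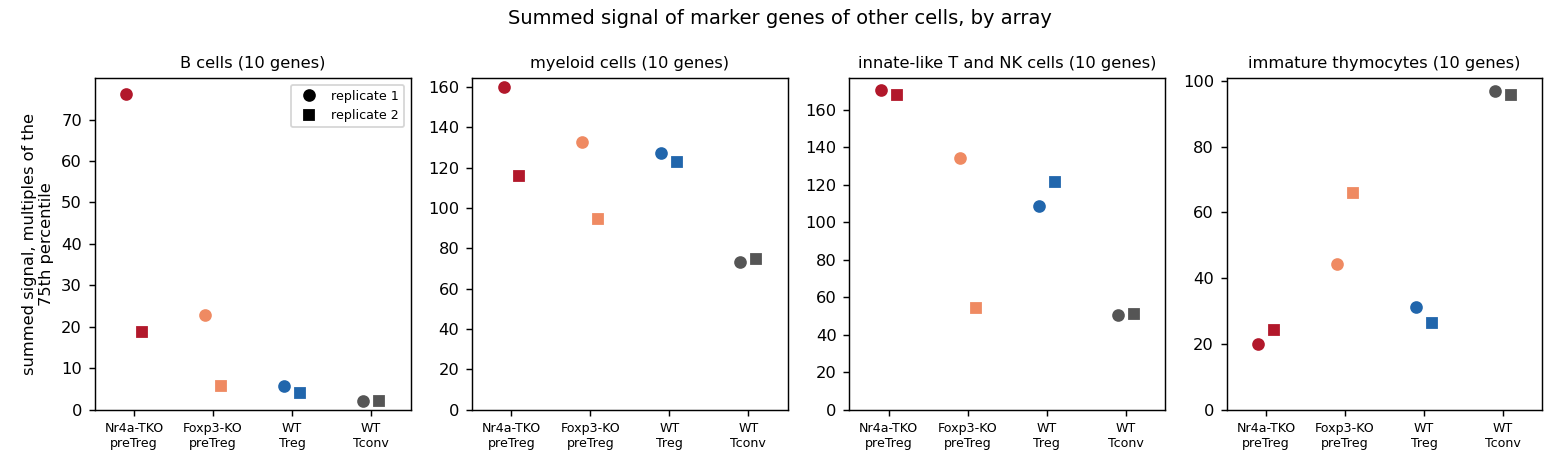
Summed relative signal (multiples of the array 75th percentile) of 10 marker genes each of B cells, myeloid cells, innate-like T and NK cells and immature thymocytes, 1 point per array. B cell sums reach 76.2 in Nr4a-TKO preTreg replicate 1, against at most 2.17 in WT Tconv, and immature thymocyte sums are highest in WT Tconv.

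Adora2a, the gene of the main adenosine receptor of T cells, had a relative signal of 4.56 and 5.90 in Nr4a-TKO preTreg, 2.07 and 0.821 in Foxp3-KO preTreg, 3.63 and 3.69 in WT Treg and 0.803 and 1.09 in WT Tconv. Nr4a-TKO preTreg and WT Treg lay above both other groups on every array, and Foxp3-KO preTreg overlapped with WT Tconv. Adora2a was 5.54-fold higher in Nr4a-TKO preTreg (log2 2.47 ± 0.44 SE, adjusted p = 0.00796) and 3.91-fold higher in WT Treg (log2 1.97, adjusted p = 0.0212) than in WT Tconv. The first call was lost without WT Tconv replicate 1 (0.0538) and the second without any 1 WT Tconv or WT Treg array (0.0737 to 0.115).

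In Foxp3-KO preTreg the Adora2a difference from WT Tconv was 0.48, with a 95% interval of -0.61 to 1.58 (adjusted p = 0.443). It was -0.19 without Foxp3-KO preTreg replicate 1 and 1.15, with adjusted p = 0.0289, without replicate 2. Nr4a-TKO preTreg had 3.98-fold more signal than Foxp3-KO preTreg (adjusted p = 0.0221), a call lost without either Nr4a-TKO preTreg array (0.0727 and 0.0937), and the difference was 1.32 without Foxp3-KO preTreg replicate 2. Against WT Treg the log2 difference was 0.50 in Nr4a-TKO preTreg (-0.59 to 1.60, adjusted p = 0.405) and -1.49 in Foxp3-KO preTreg (-2.58 to -0.39, adjusted p = 0.112). The second passed without Foxp3-KO preTreg replicate 1 (-2.16, 0.0125).

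P2rx7, the gene of the ATP-gated P2X7 channel, gave the smallest adjusted p of the 7 genes in both WT Treg and Nr4a-TKO preTreg against WT Tconv. The relative signal of its brightest probe was 15.8 and 13.3 in Nr4a-TKO preTreg, 7.64 and 5.84 in Foxp3-KO preTreg, 14.1 and 14.7 in WT Treg and 2.69 and 2.56 in WT Tconv. Nr4a-TKO preTreg and WT Treg overlapped at the top, Foxp3-KO preTreg was in between, and WT Tconv was lowest. P2rx7 was 5.52-fold higher in Nr4a-TKO preTreg (log2 2.47 ± 0.15 SE, adjusted p = 0.000479), 2.54-fold higher in Foxp3-KO preTreg (log2 1.35, adjusted p = 0.00566) and 5.49-fold higher in WT Treg (log2 2.46, adjusted p = 0.000517) than in WT Tconv. The Foxp3-KO call was lost without WT Tconv replicate 2, at 0.0505.

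Nr4a-TKO preTreg and WT Treg differed by 0.01 in P2rx7 on the log2 scale, with a 95% interval of -0.37 to 0.39 (adjusted p = 0.967). Foxp3-KO preTreg was 2.16-fold lower than WT Treg (log2 -1.11, adjusted p = 0.02), a call lost without any 1 of the WT Treg and WT Tconv arrays (0.0656 to 0.0931), and Nr4a-TKO preTreg was 2.17-fold higher than Foxp3-KO preTreg (adjusted p = 0.00617). On the other P2rx7 probes, too, Foxp3-KO preTreg lay above WT Tconv and below the other groups. The middle probe had 4.63 and 3.96 in Nr4a-TKO preTreg, 2.28 and 1.51 in Foxp3-KO preTreg, 4.16 and 3.84 in WT Treg and 0.969 and 0.86 in WT Tconv. The dimmest probe had 0.821 and 0.857 in Nr4a-TKO preTreg, 0.468 and 0.399 in Foxp3-KO preTreg, 0.919 and 0.933 in WT Treg and 0.187 and 0.246 in WT Tconv.

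Fitted on their own, the 3 probes gave log2 differences of 1.97 to 2.47 in Nr4a-TKO preTreg, 1.01 to 1.35 in Foxp3-KO preTreg and 2.11 to 2.46 in WT Treg against WT Tconv, all called. The probes disagreed in call only for Foxp3-KO preTreg against WT Treg, where the differences were -1.10, -1.11 and -1.11 and the middle probe missed the threshold at adjusted p = 0.0544. They disagreed in sign only for Nr4a-TKO preTreg against WT Treg, from -0.14 for the dimmest to 0.10 for the middle probe, with none called. The probes carry the names of different RefSeq transcripts, and how far each detects other P2rx7 isoforms was not tested.

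**Figure D3:**
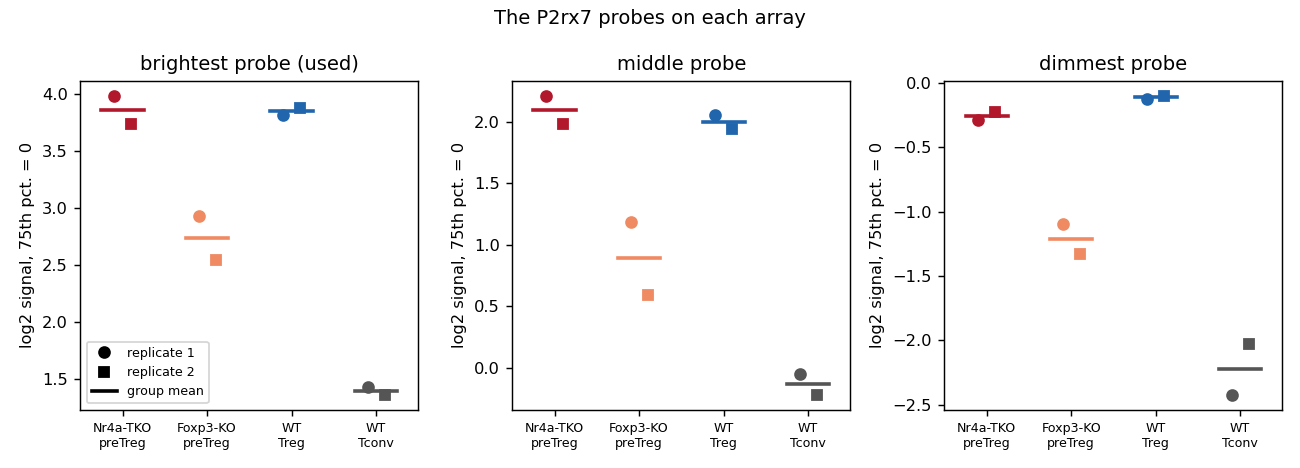
Log2 signal (array 75th percentile at 0) of the 3 P2rx7 probes on each array, with group means of 2 as lines. The group means of Nr4a-TKO preTreg and WT Treg differ by -0.14 to 0.10 over the 3 probes, and Foxp3-KO preTreg lies between them and WT Tconv.

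Ada encodes adenosine deaminase, which turns adenosine into inosine inside and outside the cell, and whose loss in humans causes severe combined immunodeficiency. Its relative signal was 4.50 and 3.36 in Nr4a-TKO preTreg, 4.67 and 3.79 in Foxp3-KO preTreg, 3.07 and 2.87 in WT Treg and 5.81 and 5.69 in WT Tconv. WT Tconv was highest and WT Treg lowest on every array, and the precursor groups overlapped in between. Ada was 1.94-fold lower in WT Treg than in WT Tconv (log2 -0.95 ± 0.17 SE, adjusted p = 0.0106), and 1.48-fold lower in Nr4a-TKO preTreg (log2 -0.56, adjusted p = 0.0389). The WT Treg call was lost without WT Tconv replicate 1 or 2 or WT Treg replicate 2 (0.0565 to 0.0683). The Nr4a-TKO call was lost without any 1 WT Tconv or WT Treg array or Nr4a-TKO preTreg replicate 2 (0.067 to 0.148), and without the last the difference was -0.35. It was also lost without the filter on dim probes (0.0714) and with only the 2 groups compared (0.0599).

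The other Ada differences did not pass. Foxp3-KO preTreg differed from WT Tconv by -0.45 (95% interval -0.87 to -0.03, adjusted p = 0.104, and 0.0464 with the median of each array in place of the 75th percentile) and from WT Treg by 0.50 (0.08 to 0.92, adjusted p = 0.144). Nr4a-TKO preTreg differed from WT Treg by 0.39 (-0.03 to 0.81, adjusted p = 0.124) and from Foxp3-KO preTreg by -0.11 (-0.53 to 0.31, adjusted p = 0.636). Markers of immature thymocytes, cells known for high Ada in the mouse thymus, had summed signals of 19.9 and 24.2 in Nr4a-TKO preTreg, 44.3 and 65.8 in Foxp3-KO preTreg, 31.1 and 26.3 in WT Treg and 96.9 and 95.7 in WT Tconv. Of these 10 markers, 6 were called lower and 1 higher in Nr4a-TKO preTreg than in WT Tconv, 0 in either direction in Foxp3-KO preTreg and 4 lower in WT Treg, with none of the 10 below background on WT Tconv arrays. Over all tested genes 26.8% were called lower and 21.5% higher in Nr4a-TKO preTreg. The shares were 14.3% and 10.4% in Foxp3-KO preTreg and 21.5% and 13.8% in WT Treg. The part of these markers in the Ada differences was not tested.

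Ampd1, which encodes an AMP deaminase that turns AMP into IMP and is best known from skeletal muscle, had its highest signal in WT Tconv. Its relative signal was 0.0623 and 0.172 in Nr4a-TKO preTreg, 0.559 and 1.12 in Foxp3-KO preTreg, 0.682 and 0.291 in WT Treg and 2.40 and 2.65 in WT Tconv. All 8 values were well above background. WT Tconv was highest and Nr4a-TKO preTreg lowest, and Foxp3-KO preTreg overlapped with WT Treg. Ampd1 was 24.4-fold lower in Nr4a-TKO preTreg than in WT Tconv (log2 -4.61 ± 0.65 SE, adjusted p = 0.00391) and 5.66-fold lower in WT Treg (log2 -2.50, adjusted p = 0.0328). With another background correction (normexp) the first difference was -3.06, and the second call was lost without either WT Tconv array or WT Treg replicate 2 (0.125 to 0.136), or without the filter on dim probes (0.0579).

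Ampd1 was 7.64-fold lower in Nr4a-TKO preTreg than in Foxp3-KO preTreg (log2 -2.93, adjusted p = 0.0221), with a difference of -1.63 under normexp. That call was lost without Nr4a-TKO preTreg replicate 1 (0.0887), Foxp3-KO preTreg replicate 2 (0.0867) or either WT Tconv array (0.0519 and 0.051), and with array weights (0.0584). Against WT Treg the Nr4a-TKO difference was -2.11 (95% interval -3.72 to -0.49, adjusted p = 0.0531), with -2.84 and adjusted p = 0.0445 without Nr4a-TKO preTreg replicate 2. It passed with an intensity trend (0.028), array weights (0.0387) or only probes above background on all arrays (0.0362). Foxp3-KO preTreg differed from WT Tconv by -1.67 (-3.29 to -0.06, adjusted p = 0.112) and from WT Treg by 0.83 (-0.79 to 2.44, adjusted p = 0.477), neither of which passed, the first being -1.43 with adjusted p = 0.0277 under normexp. The immature thymocyte markers given for Ada followed the same order of groups at both ends, highest in WT Tconv and lowest in Nr4a-TKO preTreg, and their part in the Ampd1 differences was not tested.

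Dpp4 encodes CD26, a surface dipeptidyl peptidase that in humans also binds adenosine deaminase at the cell surface. Its relative signal was 5.15 and 5.77 in Nr4a-TKO preTreg, 3.52 and 3.18 in Foxp3-KO preTreg, 3.6 and 3.42 in WT Treg and 2.61 and 2.58 in WT Tconv. Nr4a-TKO preTreg was highest and WT Tconv lowest on every array, and Foxp3-KO preTreg overlapped with WT Treg. Dpp4 changed little in size but with a small spread: it was 2.10-fold higher in Nr4a-TKO preTreg (log2 1.07 ± 0.09 SE, adjusted p = 0.00108), 1.29-fold higher in Foxp3-KO preTreg (log2 0.37, adjusted p = 0.0399) and 1.35-fold higher in WT Treg (log2 0.44, adjusted p = 0.018) than in WT Tconv.

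Nr4a-TKO preTreg exceeded WT Treg by 1.55-fold in Dpp4 (log2 0.64, adjusted p = 0.00638) and Foxp3-KO preTreg by 1.63-fold (log2 0.70, adjusted p = 0.00543). Foxp3-KO preTreg and WT Treg differed by -0.07, with a 95% interval of -0.30 to 0.16 (adjusted p = 0.686). The WT Treg call against WT Tconv was lost without any 1 WT Treg or WT Tconv array (0.0619 to 0.102), and its difference was 0.29 with median scaling, still called. The Foxp3-KO call against WT Tconv was lost without Foxp3-KO preTreg replicate 1 (0.107), any 1 WT Treg array (0.0721 and 0.0719) or any 1 WT Tconv array (0.171 and 0.178), with the replicate number as a block (0.064), with the median of each array in place of the 75th percentile (0.0897, difference 0.21), without the filter on dim probes (0.0566) and with array weights (0.0608).

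**Figure D4:**
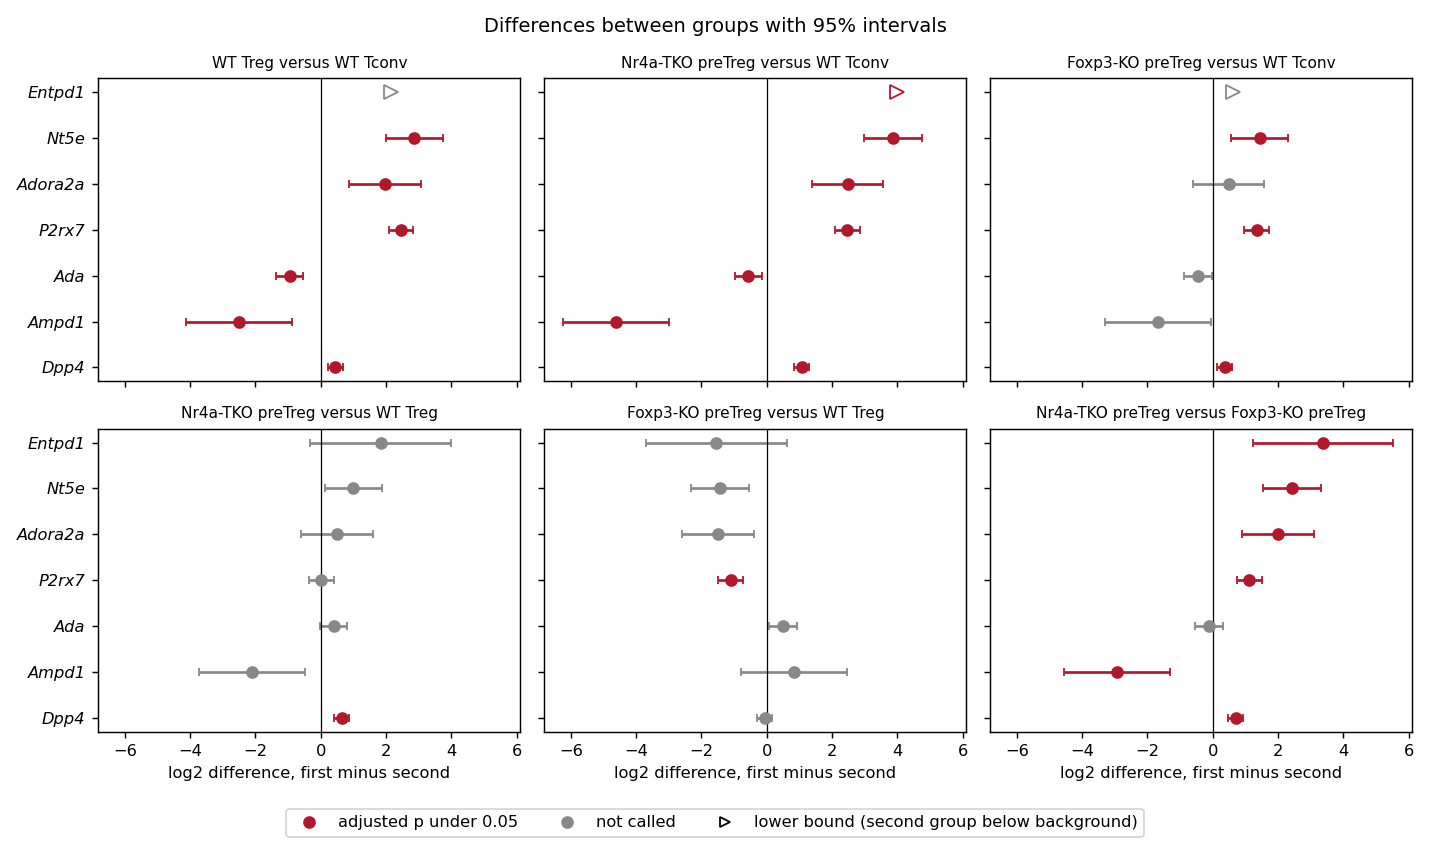
Log2 differences of the 7 genes in the 6 comparisons, first group minus second, as points with 95% intervals from limma, in red where the adjusted p is under 0.05; open triangles are the lower bounds for Entpd1 against WT Tconv. Ada and Ampd1 lie left of 0 in the 3 comparisons with WT Tconv, and P2rx7 lies at 0.01 in Nr4a-TKO preTreg against WT Treg.

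Centred over the 8 arrays, the patterns of Adora2a and P2rx7 were the closest pair among the 7 genes, with a root mean square difference of 0.48 on the log2 scale, followed by 0.58 for Nt5e with either of them. The widest gap was 3.56, between Entpd1 and Ampd1. Over all tested genes, the 3 closest to P2rx7 were Igf1r (0.0965), Rarg (0.131) and Cyp4v3 (0.208). Igf1r, the receptor of insulin-like growth factor, had 6.07 and 5.36 in Nr4a-TKO preTreg, 3.38 and 2.70 in Foxp3-KO preTreg, 5.98 and 6.64 in WT Treg and 1.28 and 1.1 in WT Tconv. The closest to Nt5e were Endod1 (0.257), Syt11 (0.268) and Glis2 (0.268), and to Adora2a Map7d3 (0.176), Gpr34 (0.197) and Neil2 (0.199). The closest to Entpd1, at wider distances, were Il23r (0.376), the interleukin 23 receptor, Ces2c (0.396) and Tnfsf13b (0.405), the gene of the B cell survival factor BAFF. Among the genes that were highest in WT Tconv, Ada was closest to Lpar6 (0.105), Lancl2 (0.106) and Slco3a1 (0.116), and Ampd1 to 4933406C10Rik (0.218), Padi3 (0.375) and Kcnh3 (0.433). Dpp4 was closest to Rnf149 (0.0678), Phf11d (0.0845) and Lif (0.0913).

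Further genes of the purine pathway were taken from lists by role. Their counts of calls stand against high shares over all tested genes in the comparisons with WT Tconv. These were 21.5% higher and 26.8% lower in Nr4a-TKO preTreg, 10.4% and 14.3% in Foxp3-KO preTreg, and 13.8% and 21.5% in WT Treg. Of 12 other ectonucleotidases 8 were tested, and against WT Tconv 2 were higher and 4 lower in Nr4a-TKO preTreg, 2 and 2 in Foxp3-KO preTreg and 2 and 2 in WT Treg. The 2 called higher were Alpl and Enpp1 in each, but in Foxp3-KO preTreg the Alpl call was between 2 groups below background, and only Enpp1 was measured as higher. Alpl, the tissue-nonspecific alkaline phosphatase, which can also release adenosine from AMP, was below background on all WT Tconv and Foxp3-KO preTreg arrays, so no fold is given between these groups. Its signal exceeded WT Tconv by at least 4.35-fold in Nr4a-TKO preTreg (adjusted p = 0.000297) and by at least 2.62-fold in WT Treg (adjusted p = 0.000809). Nr4a-TKO preTreg exceeded Foxp3-KO preTreg by at least 3.05-fold (adjusted p = 0.000997), and Foxp3-KO preTreg was at least 1.84-fold lower than WT Treg (adjusted p = 0.0113). Enpp4, a phosphodiesterase of the Enpp family, was lower in all 3 groups than in WT Tconv, by log2 differences of -1.43, -0.54 and -1.14 in Nr4a-TKO preTreg, Foxp3-KO preTreg and WT Treg. Entpd5, a nucleoside diphosphatase of the endoplasmic reticulum in the CD39 family, was also lower in these 3 groups (-1.17, -0.83 and -1.02), and Enpp1, which makes pyrophosphate and AMP from ATP, was higher (1.09, 1.13 and 0.97).

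Of 14 tested receptors for adenosine and nucleotides, 8 were higher and 1 lower in Nr4a-TKO preTreg than in WT Tconv, 6 and 0 in Foxp3-KO preTreg, and 2 and 1 in WT Treg. The shares over all tested genes were 21.5% and 26.8%, 10.4% and 14.3%, and 13.8% and 21.5%. In the same order, 4, 4 and 5 of the 14 were below background on both arrays of at least 1 of the groups compared. P2ry10, a lysophospholipid receptor of the P2Y-like family, was higher in all 3 groups, by 1.52 in Nr4a-TKO preTreg (adjusted p = 0.00128), 0.83 in Foxp3-KO preTreg (adjusted p = 0.0156) and 1.91 in WT Treg (adjusted p = 0.000821). P2rx5, an ATP-gated channel, was higher by 2.54, 1.80 and 1.74 in the same order of groups. P2ry2, a receptor for ATP and UTP, was above background in Nr4a-TKO preTreg only, where it exceeded WT Tconv by at least 2.43-fold (adjusted p = 0.00117), WT Treg by at least 1.84-fold and Foxp3-KO preTreg by at least 1.74-fold. Adora2b, the low-affinity A2B adenosine receptor, was higher in Nr4a-TKO preTreg than in WT Tconv by 1.06 (adjusted p = 0.00226), than in WT Treg by 0.90 and than in Foxp3-KO preTreg by 1.09. In WT Treg and Foxp3-KO preTreg it differed from WT Tconv by 0.16 and -0.04, and neither passed (adjusted p = 0.352 and 0.849).

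Of the enzymes that use NAD at the surface and the ATP release channels, 3 of 5 were tested. Art2b, an ADP-ribosyltransferase that gates mouse P2X7, was higher than in WT Tconv in Nr4a-TKO preTreg (1.16, adjusted p = 0.0104), Foxp3-KO preTreg (1.33, adjusted p = 0.015) and WT Treg (1.77, adjusted p = 0.00405). Its near-identical neighbour Art2a could not be matched, and which of them the probe detects was not tested. Cd38, an NAD glycohydrolase also made by B cells, was higher in Nr4a-TKO preTreg (2.79, adjusted p = 0.0144) and WT Treg (2.38, adjusted p = 0.0308), and its difference of 1.88 in Foxp3-KO preTreg did not pass (adjusted p = 0.0723).

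The nucleoside transporters moved in both directions. Of 6 tested, 2 were higher and 2 lower in Nr4a-TKO preTreg than in WT Tconv, 2 and 0 in Foxp3-KO preTreg, and 1 and 1 in WT Treg. Slc29a1, the equilibrative transporter ENT1 that carries adenosine across the plasma membrane, had a relative signal of 11.3 and 9.50 in Nr4a-TKO preTreg, 4.46 and 3.40 in Foxp3-KO preTreg, 2.83 and 2.74 in WT Treg and 4.32 and 4.20 in WT Tconv. It was higher in Nr4a-TKO preTreg by 1.28 (adjusted p = 0.00248) and lower in WT Treg by 0.61 (log2 -0.61, adjusted p = 0.0293) than in WT Tconv. Slc29a3, a transporter of lysosomes, was lower in Nr4a-TKO preTreg (-0.65) and higher in Foxp3-KO preTreg (0.58) than in WT Tconv. Slc28a1 was lower in Nr4a-TKO preTreg (-1.01), and Slc29a4 was higher in Nr4a-TKO preTreg, Foxp3-KO preTreg and WT Treg (1.21, 1.47 and 1.86).

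Of 23 tested genes of purine salvage and interconversion, 9 were higher and 1 lower in Nr4a-TKO preTreg than in WT Tconv, 4 and 3 in Foxp3-KO preTreg, and 6 and 2 in WT Treg. Adk, adenosine kinase, which returns adenosine to AMP inside the cell, had 10.9 and 13 in Nr4a-TKO preTreg, 6.28 and 4.97 in Foxp3-KO preTreg, 7.16 and 8.74 in WT Treg and 5.22 and 5.23 in WT Tconv. It was higher in Nr4a-TKO preTreg than in WT Tconv by 1.19 (adjusted p = 0.00366), WT Treg by 0.59 (adjusted p = 0.0401) and Foxp3-KO preTreg by 1.09 (adjusted p = 0.00787). The mitochondrial nucleotide kinases Ak4 and Ak3 were higher in all 3 groups than in WT Tconv, Ak4 by 3.32, 2.20 and 1.03 and Ak3 by 1.54, 0.74 and 1.11 in Nr4a-TKO preTreg, Foxp3-KO preTreg and WT Treg. Ahcyl2, a relative of the hydrolase that makes adenosine from S-adenosylhomocysteine, had 9.75 and 8.75 in Nr4a-TKO preTreg, 33.7 and 34.1 in Foxp3-KO preTreg, 38.7 and 48.8 in WT Treg and 8.40 and 8.75 in WT Tconv. It was lower in Nr4a-TKO preTreg than in WT Treg (-2.24, adjusted p = 0.000619) and Foxp3-KO preTreg (-1.88, adjusted p = 0.00108).

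The synthesis of purines from scratch was measured with all 13 listed genes, of which 2 were higher and 5 lower in Nr4a-TKO preTreg than in WT Tconv, 1 and 3 in Foxp3-KO preTreg, and 1 and 4 in WT Treg. Adssl1, a synthase of the step that leads to AMP, was higher in all 3 groups (2.67, 2.47 and 2.96). Impdh1, a dehydrogenase of the step that leads to GMP, was lower in all 3 (-1.35, -0.88 and -0.88). Atic and Gart carry out middle steps of the pathway. Atic was lower in Foxp3-KO preTreg and WT Treg (-0.62 and -0.49), and Gart was lower in Nr4a-TKO preTreg and Foxp3-KO preTreg (-0.47 and -0.53). Of 5 peptidases related to CD26, 1 was higher and 1 lower in Nr4a-TKO preTreg than in WT Tconv, 0 and 0 in Foxp3-KO preTreg (at an adjusted p under 0.05 in limma), and 0 and 1 in WT Treg. Dpp7 was higher (0.73, adjusted p = 0.00209) and Fap lower (-1.64, adjusted p = 0.0067) in Nr4a-TKO preTreg, and Prep was lower in WT Treg (-0.37, adjusted p = 0.0393). The B cell and myeloid sums given with Entpd1 were highest in Nr4a-TKO preTreg replicate 1, and their part in the differences of these lists was not tested.

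**Figure D5:**
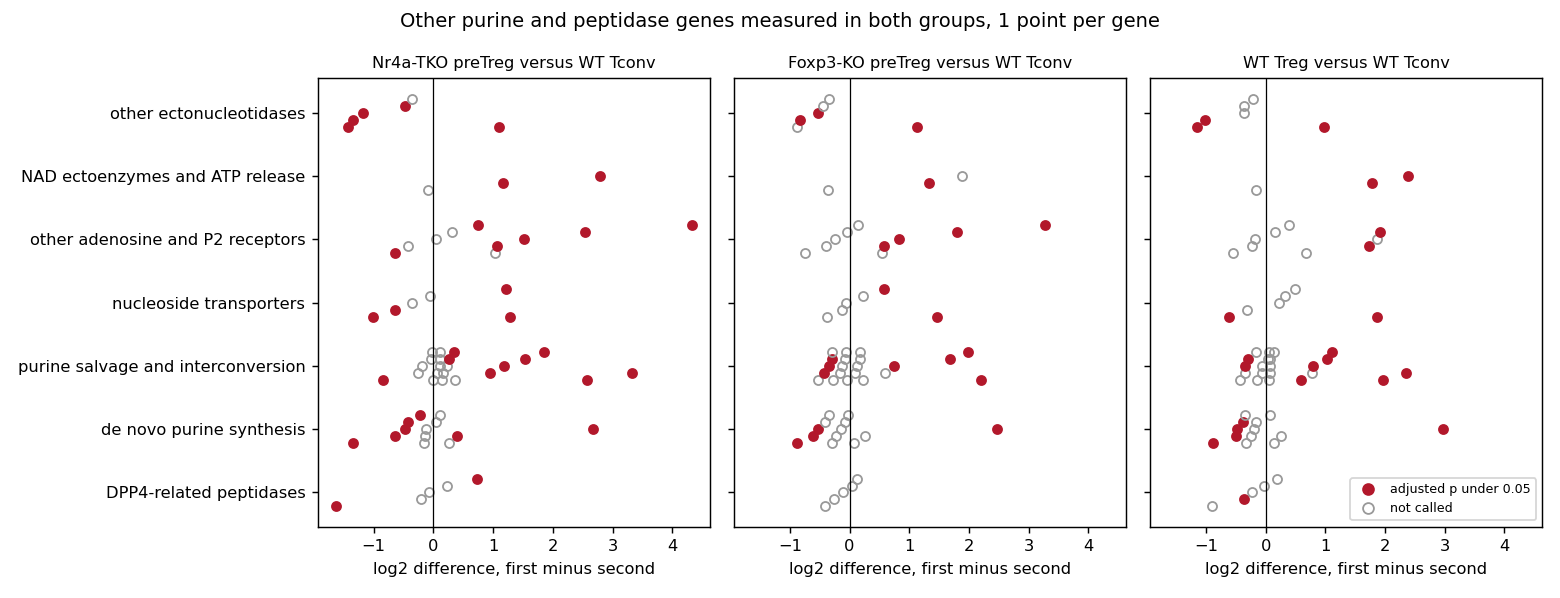
Log2 differences from WT Tconv of the other purine and peptidase genes by list, for Nr4a-TKO preTreg, Foxp3-KO preTreg and WT Treg, with 1 point per gene measured in both groups and filled points where the adjusted p is under 0.05. Genes below background on all arrays of a group are not drawn, and most lists hold points on both sides of 0.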

How the data were processed

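Per the labels' protocols, Cy3-labelled cRNA was made from 10 ng of RNA and hybridised to 1-colour Agilent arrays. Per the file headers, Agilent Feature Extraction 10.7.1.1 produced the scanner files, and the deposited values used are the processed intensity of each spot, background-subtracted with no normalization between arrays. The deposited value table of linear intensity was a constant multiple of it on each array. Each array had 62976 spots, of which 3671 were controls and 0 saturated, and outlier spots were left out.

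Spots of a probe were averaged, log2 values were set relative to each array's 75th percentile, and the brightest probe of a gene was used. Symbols came from RefSeq accessions through the reference tables (28026 probes with a symbol, 27655 without). A gene was tested if well above background on both arrays of at least 1 group. One limma model (version 3.58.1, R 4.3.3) with lmFit and eBayes covered all 4 groups (4 residual and 1.59 prior degrees of freedom), with Benjamini-Hochberg adjustment over the 13496 genes within each of 6 comparisons at 0.05. P-values measure only the spread between 2 replicates per group, and the number of arrays limits the precision. The steps were tested on simulated data. Named genes outside the 7 are, per list, up to 4 called in most comparisons and, per gene of the 7, the 3 with the smallest root mean square distance. The 7 genes and the lists were chosen with earlier results of these data known. Alternatives changed the scaling, background correction, filter, probe rule, variance model, samples and replicate block.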

Additional observations from a re-analysis of the deposited data

How the results depend on the processing

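Over all genes and comparisons of the 7 genes, 721 values kept direction and side of the threshold under an alternative, 73 lost a call, 39 gained one and 13 changed sign. The number of the 7 genes called in Foxp3-KO preTreg against WT Tconv (3) was 1 without the filter on dim probes and 1 with only the 2 groups compared in the fit. In Nr4a-TKO preTreg against WT Treg (1) it was 3 with normexp, 2 with only probes above background on all arrays, 3 with an intensity trend, 3 with array weights, 2 with only the 2 groups, 5 without Nr4a-TKO preTreg replicate 2 and Foxp3-KO preTreg replicate 1 together, and 0 with a 2-fold minimum. In Foxp3-KO preTreg against WT Treg (1) it was 2 with normexp, 2 with the trend, 0 with only the 2 groups and 4 without those 2 arrays. In Nr4a-TKO preTreg against Foxp3-KO preTreg (6) it was 0 with only the 2 groups, a fit with fewer arrays, where the adjusted p was 0.0566 for Nt5e, 0.0598 for P2rx7 and 0.0612 for Dpp4. The share of all genes called with only the 2 groups was 6.62% there. It was 9.51% in Foxp3-KO preTreg against WT Tconv, and 29.0% in Nr4a-TKO preTreg and 0% in Foxp3-KO preTreg against WT Treg. Leaving out 1 array at a time gave 0 to 5 calls in Foxp3-KO preTreg against WT Tconv, 4 to 7 in Nr4a-TKO preTreg and 2 to 7 in WT Treg against WT Tconv, 1 to 3 in Nr4a-TKO preTreg and 0 to 4 in Foxp3-KO preTreg against WT Treg, and 3 to 6 between the precursors.

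The sign changed in Foxp3-KO preTreg against WT Tconv without Foxp3-KO preTreg replicate 1, and again without both arrays named above, for Entpd1 (-0.0097, with both groups then below background, and up to 2.65 over all single arrays left out, fitted values that are no bounds) and Adora2a (-0.19, and up to 1.15). For P2rx7 in Nr4a-TKO preTreg against WT Treg it was -0.055 with quantile normalization, -0.011 with the mean of the probes, -0.11 to 0.13 with 1 array left out and -0.14 for the dimmest probe, a setting added after seeing the data. For Ada between the precursors it was -0.32 to 0.10 with 1 array left out and 0.25 without both, and for Dpp4 in Foxp3-KO preTreg against WT Treg -0.14 to 0.0041 with 1 array left out, the highest without Foxp3-KO preTreg replicate 2. None of these was called in the reported fit, and the causes were not tested.

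With the replicate number as a block the counts of calls were 6, 7, 2, 1, 1 and 6 in WT Treg, Nr4a-TKO preTreg and Foxp3-KO preTreg against WT Tconv, Nr4a-TKO preTreg and Foxp3-KO preTreg against WT Treg, and between the precursors. The deviations of same-numbered samples correlated over genes by 0.15 to 0.26 among Nr4a-TKO preTreg, Foxp3-KO preTreg and WT Treg, and by -0.03 to -0.01 between each of these and WT Tconv. Same-numbered samples thus deviated together among those 3 groups but not with WT Tconv, and no label says that a number marks a shared animal or day. Over all genes the calls ranged over the alternatives from 3084 to 7729 in Nr4a-TKO preTreg, 506 to 5027 in Foxp3-KO preTreg and 1658 to 6785 in WT Treg against WT Tconv, from 2307 to 5880 in Nr4a-TKO preTreg and 0 to 1620 in Foxp3-KO preTreg against WT Treg, and from 893 to 7371 between the precursors. Median scaling moved the median of all genes by -0.15 in WT Treg and Foxp3-KO preTreg against WT Tconv, and the share of calls that were higher was then 25.8% and 22.5%, against 39.1% and 42.1% in the reported fit. For Nr4a-TKO preTreg that share was 67.1% against WT Treg and 66.7% against Foxp3-KO preTreg with median scaling, and 55.0% and 53.4% in the reported fit. Signal over background limits Entpd1, which was below background on 3 of 8 arrays, and with normexp its fitted differences were 2.15 in Nr4a-TKO preTreg against WT Tconv and 1.76 between the precursors.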

Other observations

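Gda, the guanine deaminase that turns guanine into xanthine, was chosen after its values were seen. Its relative signal was 4.25 and 1.41 in Nr4a-TKO preTreg, 0.234 and 0.0417 in Foxp3-KO preTreg, 0.0257 and 0.0546 in WT Treg and 0.0129 and 0.0118 in WT Tconv. The probe used was well above background on both Nr4a-TKO preTreg arrays, on 1 Foxp3-KO preTreg array and on no WT Treg or WT Tconv array. Gda was at least 50.4-fold higher in Nr4a-TKO preTreg than in WT Tconv (limma, adjusted p = 0.00276). Xdh, the xanthine dehydrogenase of the next step, was also chosen after its values were seen and was higher in Nr4a-TKO preTreg than in WT Tconv by 2.57 on the log2 scale (adjusted p = 0.0021). Among the P2Y receptors, P2ry13, a receptor for ADP, was at least 6.67-fold higher in Nr4a-TKO preTreg (adjusted p = 0.00779) and at least 4.17-fold higher in Foxp3-KO preTreg (adjusted p = 0.0245) than in WT Tconv, where it was below background on both arrays, and P2ry6, a receptor for UDP, was higher by 4.34 and 3.28 (adjusted p = 0.00608 and 0.0271), with both again named after their values were seen. Myeloid and B cell marker sums were highest in Nr4a-TKO preTreg replicate 1, which also had the highest Gda signal, and their part in these differences was not tested.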
